A study of Canis lupus familiaris with 186 samples.

Results

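Among 186 primary canine osteosarcomas, 58 fell in the GS-1 favorable prognosis (FP) cluster, the tumors whose inflammatory signature genes were high, and the remaining 128 in the poor prognosis (PP) cluster. The FP tumors were ranked here by the log2 ratio of CD3E to CD163, each in CPM (counts scaled to the library total) plus 1. The 19 tumors with the highest ratio are called T-cell-rich and the 19 with the lowest CD163-dominant, which makes 38 of 186 tumors. The other 20 FP tumors lie in the middle. The ratio uses CD3E and CD163 of these same libraries, so the 38 tumors were chosen by measured values, and the levels of both genes are a description with no test.

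Each library came from the frozen limb tumor of a different pet dog, untreated before the biopsy and free of visible metastases, and the dogs varied in age, breed and sex. The dogs were enrolled in COTC021 or COTC022, with 93 in each. After amputation the dogs had carboplatin, alone or with rapamycin, so neither drug had reached the tissue sampled. The labels name every sample a tumor and give no age, breed or sex.

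CD3E is a signalling chain of the T cell receptor complex and is carried by nearly all T cells. CD163 is a scavenger receptor for haptoglobin-hemoglobin complexes on macrophages, above all on those with a tissue-resident or repair phenotype. T cells that meet antigen release interferon gamma, which acts through factors such as IRF1 to raise antigen presentation and the chemokines that draw in further lymphocytes. Osteosarcomas commonly hold many macrophages and few T cells, and bone also holds osteoclasts, which come from the same myeloid lineage.

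The lowest, median and highest levels of CD3E, on chromosome 5, 15428916 to 15440314 in the dog genome build GSD_1.0, were 18.0, 49.5 and 880.4 CPM in the T-cell-rich tumors and 1.87, 4.19 and 15.0 CPM in the CD163-dominant tumors. Every T-cell-rich tumor was above every CD163-dominant tumor. CD163, on chromosome 27, 8402538 to 8433169, was 56.6, 126 and 735 CPM in the T-cell-rich tumors and 119, 255 and 1827 CPM in the CD163-dominant tumors. The plot of both genes by tumor shows that the groups overlapped in CD163, and 7 T-cell-rich and 15 CD163-dominant tumors were above the FP median of 162 CPM. The ratio ranged from -2.25 to 0.513 in the T-cell-rich tumors and from -6.95 to -4.51 in the CD163-dominant tumors. It was above 0 in 2 T-cell-rich and 0 CD163-dominant tumors. CD163 was thus above CD3E in most tumors of both groups, and both names are relative to the other FP tumors. At the edges, the last T-cell-rich tumor (ratio -2.25) had 18.0 CPM of CD3E and 89.3 of CD163, and the first tumor outside (ratio -2.31) 7.43 and 40.9 CPM. The last CD163-dominant tumor (-4.51) had 7.76 and 199 CPM, and the first outside (-4.37) 12.2 and 271 CPM.

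**Figure D1:**
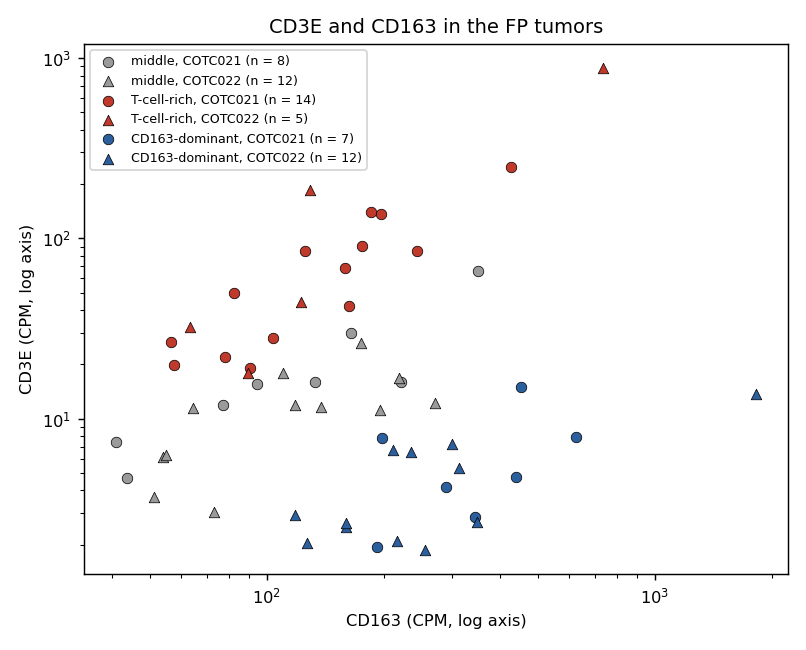
CD163 (x axis) and CD3E (y axis) in CPM, both on log axes, in each of the 58 FP tumors. CD3E is 18.0 CPM or more in all 19 T-cell-rich tumors (red) and 15.0 CPM or less in all 19 CD163-dominant tumors (blue). In CD163 the groups overlap between 119 and 735 CPM, and 8 T-cell-rich tumors lie below every CD163-dominant tumor. Circles and triangles mark the trials.

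The first name went with other T cell markers, and the second only in part with other macrophage markers. The T cell markers below include CD3D, CD3G and CD247, chains of the same receptor as CD3E. Their sum describes the ranking and adds no independent support to it. The summed level of 6 further T cell markers (CD3D, CD3G, CD2, CD5, CD6 and CD247) was 59.3, 132 and 2096 CPM in the T-cell-rich and 6.80, 24.6 and 80.5 CPM in the CD163-dominant tumors, and 14 of 19 T-cell-rich tumors were above all of the others. The summed level of 8 macrophage markers other than CD163 (MSR1, MRC1, CSF1R, AIF1, CD68, C1QA, C1QB and C1QC) was 662, 2242 and 8129 CPM in the T-cell-rich tumors. It was 642, 1550.0 and 3891 CPM in the CD163-dominant tumors, so the median of the sum was lower, not higher, in the tumors with the larger share of CD163. The 8 markers did not move alike. C1QA, C1QB, C1QC and CD68 had positive log2 fold changes (T-cell-rich minus CD163-dominant) and MSR1, MRC1, CSF1R and AIF1 negative ones, and only C1QC passed the test below. The tumors with the low ratio are therefore named by CD163 and not as macrophage-dominant. In bulk tissue, fewer cells of a type and less RNA per cell cannot be told apart. Both groups expressed osteoblast markers (RUNX2, SP7, IBSP, BGLAP, ALPL and COL1A1), with summed medians of 16599 and 25583 CPM.

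Library totals ranged from 6587634 to 20851591 counts over the 38 tumors, and a test of the difference of the group means did not pass (11968749 against 11820465 counts, permutation test, two-sided, p = 0.916). The number of features with at least 10 counts had a mean of 14055 (SD 583) in the T-cell-rich and 13616 (SD 589) in the CD163-dominant libraries. That difference was not tested. The trials were unequally spread: 14 of 19 T-cell-rich and 7 of 19 CD163-dominant tumors came from COTC021 (Fisher's exact test, two-sided, p = 0.0489). Trial was a term in the fit for this reason, and within-trial values are given for most gene lists and for some of the genes with the largest changes. In 13 of the 58 FP libraries the column name held a doubled separator, and such libraries were deeper over the whole series (median total 19440456 against 9851683 counts). They made up 5 T-cell-rich and 4 CD163-dominant libraries, of which 4 were in the T-cell-rich tumors of COTC022, where 1 other tumor remained. What these names stand for is not given in the sources used here.

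Of 13376 genes tested, 331 were higher (2.47%) and 124 lower (0.927%) in the T-cell-rich tumors at an adjusted p under 0.05 in limma, so 3.4% of genes changed. A fold change above 3 together with that adjusted p was found for 166 genes that were higher (1.24%) and 13 that were lower (0.0972%). All 455 genes called (100.0%) had the same direction within each trial, as the plot of both trials shows, which uses the same libraries and is not independent of the call. Within COTC021 alone (14 against 7 tumors) 2 genes were higher and 6 lower, and within COTC022 alone (5 against 12) 41 and 4. The median log2 fold change over all tested genes was 0.01. A test of the difference of the contrast between trials called 0 genes in limma, with 858 at an unadjusted p under 0.05 (6.41%).

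The number of genes called moved with single tumors and with the libraries kept. Without the 9 libraries with a doubled separator, 105 genes were higher and 20 lower, and with the kind of name as a further term and all 38 libraries 287 and 132. Depth and the number of tumors change together in the first of these. Of 87 named genes 69 were called with all 38 libraries, and 34 of these were no longer called without those 9, each in the same direction as before. They include LAG3, BTLA, TNFRSF18, TOX and IKZF2 of the checkpoint genes, B2M, TAP1, PSMB9, NLRC5, CIITA and GBP5 of the interferon gamma axis, and the 3 MHC class II genes that rose. CXCL10, CXCL13, GATA3, ISG20, C1QC, ITGAM, MARCO, F13A1, FABP4, LPL, PCSK5, SRPX2, CORO1A and ZBTB46 were also lost, as were 5 of the 6 B lineage genes. Without T-cell-rich tumor 11, the tumor with the highest CD3E (880 CPM), 199 genes were higher, and without T-cell-rich tumor 19 (185 CPM) 178 were higher and 42 lower. The count of lower genes also fell to 75 and 74 without CD163-dominant tumors 18 and 9. It rose to 187 and 194 without T-cell-rich tumors 13 and 14, and to 213 and 234 without CD163-dominant tumors 3 and 11. In the tumors of the middle, which took no part in the test, the median CPM lay between the medians of the other groups for 295 of the 331 higher genes (89.1%) and 80 of the 124 lower genes (64.5%), against 31.7% of all tested genes. The middle tumors also lie between the others in the ratio itself. The called genes were picked for a gap between the outer groups, which favours a middle median inside it. The 31.7% covers genes not picked in this way, so these shares are a description.

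**Figure D2:**
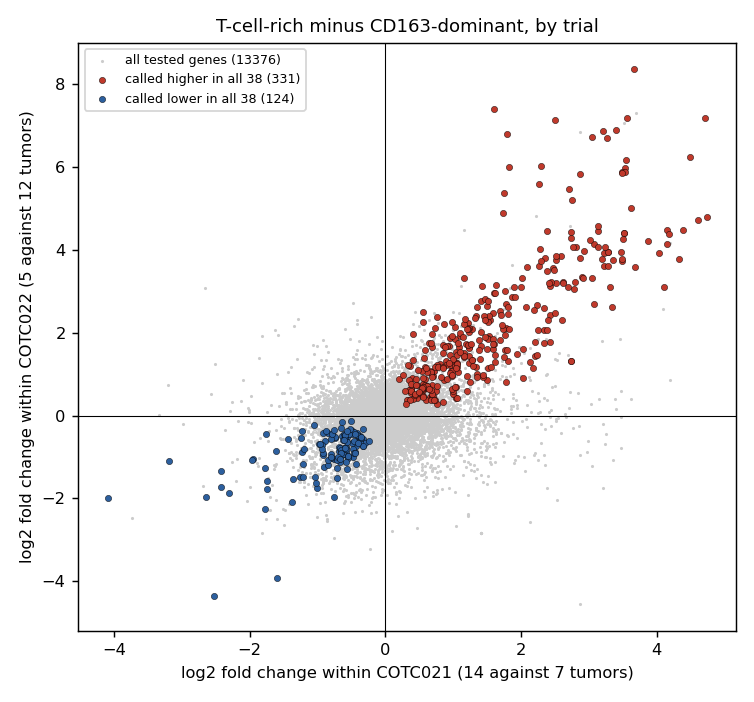
Log2 fold change, T-cell-rich minus CD163-dominant, within COTC021 (x axis) and within COTC022 (y axis) for the 13376 tested genes. The 331 genes called higher in all 38 tumors (red) lie in the upper right and the 124 called lower (blue) in the lower left, so none changed direction between the trials.

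CD3D and CD3G encode the partners of CD3E in the same receptor and are carried by the same cells, so their counts describe the ranking and add no independent support to it. Of the 13 genes of the T cell receptor complex and its coreceptors, 12 passed the filter on low counts and 11 of these rose, against the 2.47% of all genes, with a median log2 fold change of 3.66 (3.15 within COTC021 and 3.94 within COTC022). CD3D, at chromosome 5, 15417998 to 15421934 beside CD3E, was 4.57, 18.8 and 202 CPM in the T-cell-rich tumors and 0.0876, 1.21 and 3.15 CPM in the CD163-dominant tumors. No T-cell-rich tumor overlapped with a CD163-dominant tumor, and its log2 fold change was 4.37 ± 0.71 (SE; adjusted p = 0.000487). CD3G, at chromosome 5, 15403667 to 15416467, did not overlap either and rose by 4.10 ± 0.70 (all changes are given on the log2 scale), with an adjusted p of 0.000675.

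Both chains of the CD8 coreceptor of cytotoxic T cells rose and CD4, the coreceptor of helper T cells, did not pass the test. CD8A was 0.813, 6.08 and 169.6 CPM in the T-cell-rich tumors and 0, 0.442 and 2.98 CPM in the CD163-dominant tumors. It was above the CD163-dominant median in 19 of 19 T-cell-rich tumors and above all CD163-dominant tumors in 13 (log2 fold change 3.64 ± 0.85, adjusted p = 0.0106). With the FP tumors ranked instead by the ratio of CD2 to MSR1, CD8A had a log2 fold change of 3.15 and did not pass (adjusted p = 0.0708). Within COTC021 and COTC022 it was 3.48 and 3.73, without passing in either (adjusted p = 0.183 and 0.285). CD8B rose by 1.99 ± 0.58 (adjusted p = 0.0469). CD4 was 3.13, 12.1 and 327 CPM in the T-cell-rich tumors and 0.766, 10.9 and 181 CPM in the CD163-dominant tumors, with almost complete overlap and a log2 fold change of 0.47 ± 0.63, adjusted p = 0.734. In the dog, neutrophils and some macrophages also carry CD4, and its fold change was -0.42 within COTC021 and 1.38 within COTC022. CD5 and CD6, inhibitory surface receptors of T cells, had log2 fold changes of 4.08 ± 0.72, adjusted p = 0.000862, and 3.73 ± 0.65, adjusted p = 0.000731.

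Of the genes of T cell signalling and transcription, 17 of 23 passed the filter, of which 13 rose and none fell, against 2.47% and 0.927% of all genes, the shares against which each count of members below stands, and the plot of the gene lists shows them beside the other lists (median log2 fold change 2.84). LCK, the kinase that starts signalling from the receptor, was 9.91, 24.3 and 482 CPM in the T-cell-rich tumors and 0.972, 3.25 and 9.81 CPM in the CD163-dominant tumors. The groups did not overlap, and LCK rose by 3.22 ± 0.56 (adjusted p = 0.000731). Only 4 of 13376 tested genes (0.0299%) had every T-cell-rich tumor above every CD163-dominant tumor, and these were CD3D, CD3G, LCK and LOC106557461, which were picked out after their values were seen. The adaptor LAT rose by 2.84 ± 0.49 (adjusted p = 0.000675) and the kinase ZAP70 by 3.57 ± 0.66 (adjusted p = 0.00121). Among lymphocyte transcription factors IKZF3 rose by 3.70 ± 0.60, the type 1 factor TBX21 by 2.97 ± 0.62 and the type 2 factor GATA3 by 1.68 ± 0.46 (adjusted p = 0.000487, 0.0038 and 0.0316).

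**Figure D3:**
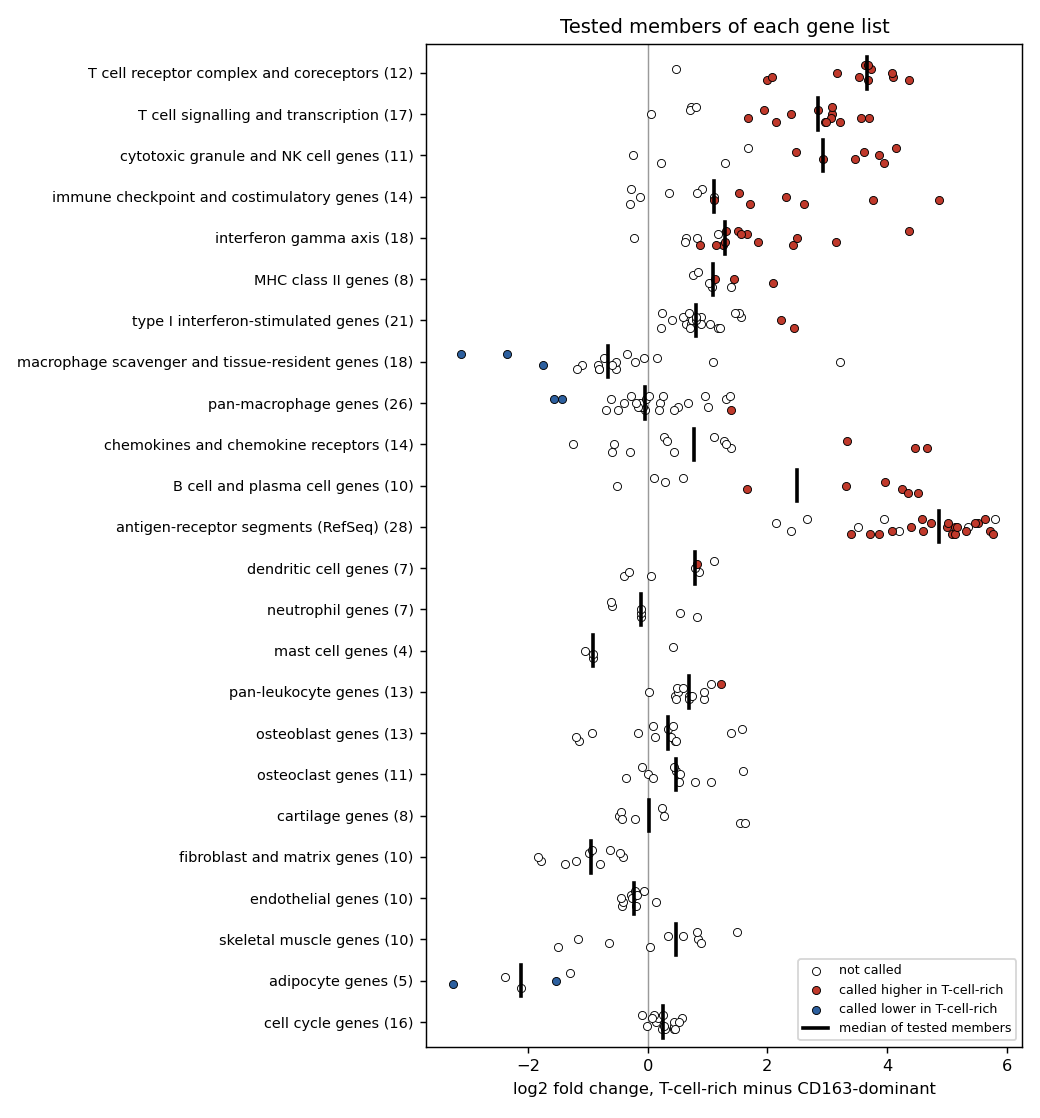
Log2 fold change, T-cell-rich minus CD163-dominant, of each tested member (points, number in brackets) of the gene lists, with black bars for the median. Filled points passed an adjusted p under 0.05, red for higher and blue for lower, and the T cell, cytotoxic, B cell and antigen-receptor rows lie furthest to the right while the pan-macrophage row is centred on 0.

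Of 17 cytotoxic granule and NK cell genes in the table, 11 passed the filter, of which 7 rose (2.47% of all genes did) and none fell (median 2.93). GZMK, a granzyme of memory-type CD8+ T cells, was 11.8, 48.6 and 2271 CPM in the T-cell-rich tumors and 0.442, 3.61 and 19.3 CPM in the CD163-dominant tumors. It was above all CD163-dominant tumors in 16 of 19 T-cell-rich tumors (log2 fold change 3.87 ± 0.71, adjusted p = 0.00101). PRF1, the pore-forming protein of the granules, was 0.786, 7.00 and 72.6 CPM in the T-cell-rich tumors and 0, 0.408 and 2.00 CPM in the CD163-dominant tumors, and rose by 3.62 ± 0.81 (adjusted p = 0.00724). GZMA and GZMB rose by 3.96 ± 1.11 and 2.93 ± 0.73, NKG7 by 4.15 ± 0.90 and CTSW by 3.46 ± 0.68 (adjusted p = 0.0365, 0.0182, 0.0053 and 0.00203). The 6 members left out by the filter included FASLG, the ligand that triggers death through FAS, with 4, 31 and 1295 counts (lowest, median and highest) in the T-cell-rich tumors and 0, 3 and 29 in the CD163-dominant tumors.

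Of 22 immune checkpoint and costimulatory genes, 14 passed the filter, 7 rose (2.47% of all genes did) and none fell (median 1.11). Those that rose were receptors and factors of lymphocytes and IDO1. TIGIT, an inhibitory receptor of T and NK cells on chromosome 33, 19131089 to 19146839, had the highest fold change of any gene with a symbol in limma, while GZMA (5.23), CCL5 (5.07) and CD79A (5.02) were above its 4.92 in edgeR. It was 1.14, 5.14 and 101 CPM in the T-cell-rich tumors and 0, 0.177 and 1.42 CPM in the CD163-dominant tumors, above all CD163-dominant tumors in 18 of 19 (log2 fold change 4.87 ± 0.73, adjusted p = 0.000317). IDO1, the tryptophan-degrading enzyme induced by interferon gamma, was 4.11, 23.0 and 117 CPM in the T-cell-rich tumors and 0, 1.97 and 32.4 CPM in the CD163-dominant tumors, and rose by 3.76 ± 0.72 (adjusted p = 0.00176). LAG3, BTLA, TNFRSF18, TOX and IKZF2 had log2 fold changes of 1.71, 2.31, 2.62, 1.53 and 1.11 and each passed the test. CD274, which encodes PD-L1, was 1.63, 6.98 and 20.5 CPM in the T-cell-rich tumors and 0.707, 1.96 and 14.1 CPM in the CD163-dominant tumors and did not pass (1.11 ± 0.37, adjusted p = 0.0926).

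PDCD1, CTLA4, ICOS and FOXP3 were too low for the filter. CTLA4 had 5, 31 and 354 counts in the T-cell-rich and 0, 2 and 38 in the CD163-dominant tumors. PDCD1, which encodes PD-1, had 1, 11 and 223 counts in the T-cell-rich and 0, 0 and 6 in the CD163-dominant tumors. FOXP3, the factor of regulatory T cells, had 0, 20 and 122 and 0, 3 and 15 counts. At least 10 counts of CTLA4 were found in 18 of 19 T-cell-rich and 2 of 19 CD163-dominant libraries, of PDCD1 in 12 and 0, and of FOXP3 in 13 and 3. These genes were not tested in the fit with the filter. The filter needed a CPM that equals 10 counts at the median library size, in more libraries than either group holds. The fit without the filter held these genes, and their results in it are not reported here.

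Of 18 tested genes of the interferon gamma axis 13 rose (2.47% of all genes did) and none fell, with a median of 1.3 (1.07 within COTC021 and 1.53 within COTC022). The chemokine CXCL10 was 0.677, 8.19 and 65.9 CPM in the T-cell-rich tumors and 0, 0.203 and 21.2 CPM in the CD163-dominant tumors. The levels were above the CD163-dominant median in 19 of 19 T-cell-rich tumors, but 1 CD163-dominant tumor reached 21.2 CPM, and 4 T-cell-rich tumors were above it (log2 fold change 4.37 ± 0.91, adjusted p = 0.00377). IRF1, a transcription factor of the interferon response, was 27.7, 106 and 346 CPM in the T-cell-rich tumors and 14.1, 28.1 and 193 CPM in the CD163-dominant tumors and rose by 1.84 ± 0.32 (adjusted p = 0.000807). The guanylate-binding proteins GBP1 and GBP5 rose by 2.43 ± 0.44 and 3.14 ± 0.66. IFNG itself was below the filter, with 0, 10 and 120 counts in the T-cell-rich and 0, 1 and 14 in the CD163-dominant tumors, and at least 10 counts in 11 and 2 libraries.

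Genes of MHC class I presentation were among the 13. B2M, the light chain of class I molecules, was 343, 919.7 and 3362 CPM in the T-cell-rich tumors and 209, 418 and 1001 CPM in the CD163-dominant tumors and rose by 1.14 ± 0.27 (adjusted p = 0.0131). TAP1, which carries peptides into the endoplasmic reticulum, rose by 1.29 ± 0.29, the immunoproteasome subunits PSMB8, PSMB9 and PSMB10 by 1.66 ± 0.34, 1.5 ± 0.39 and 1.25 ± 0.28, and the class I transactivator NLRC5 by 1.56 ± 0.34 (adjusted p = 0.00732, 0.00312, 0.0247, 0.00595 and 0.00517). CIITA, the class II transactivator, rose by 1.3 ± 0.36 (adjusted p = 0.0322). Of 8 tested MHC class II genes 3 rose and none fell, and all 8 log2 fold changes were positive (median 1.10). These were DLA-DQB1 (1.43 ± 0.35, adjusted p = 0.0147), DLA-DOB (2.10 ± 0.48, adjusted p = 0.00799) and the invariant chain CD74 (1.13 ± 0.33, adjusted p = 0.0434). DLA-DRA was 469, 758 and 4039 CPM in the T-cell-rich tumors and 201, 427 and 1790.5 CPM in the CD163-dominant tumors and did not pass (1.07 ± 0.35, adjusted p = 0.0805).

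Of 21 tested type I interferon-stimulated genes 2 rose, OASL (2.23 ± 0.53, adjusted p = 0.0122) and ISG20 (2.44 ± 0.59, adjusted p = 0.0142), against 2.47% of all genes, and the median was 0.81. The list median was 1.12 within COTC021 and 0.41 within COTC022. MX1 was 13.4, 90.0 and 563 CPM in the T-cell-rich tumors and 6.48, 28.3 and 1128 CPM in the CD163-dominant tumors (1.18 ± 0.57, adjusted p = 0.259). Its highest value was in a CD163-dominant tumor, and in edgeR's quasi-likelihood fit its log2 fold change was -0.22. No test compared this list with the interferon gamma list.

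Of 14 tested chemokine and receptor genes 3 rose (2.47% of all genes did) and none fell. CCL5, a chemokine that draws in T cells and lies on chromosome 9, 37783127 to 37789578, was 14.7, 259.9 and 3189.9 CPM in the T-cell-rich tumors and 0.177, 11.5 and 41.5 CPM in the CD163-dominant tumors. It was above all CD163-dominant tumors in 17 of 19 T-cell-rich tumors and rose by 4.67 ± 0.70 (adjusted p = 0.000317), by 4.61 within COTC021 and 4.72 within COTC022. CXCL13, which draws in B cells through CXCR5, was 0.285, 5.23 and 148 CPM in the T-cell-rich tumors and 0, 0.246 and 3.39 CPM in the CD163-dominant tumors (4.46 ± 0.81, adjusted p = 0.000993). CXCR6, a receptor of tissue-resident T cells, rose by 3.33 ± 0.70 (adjusted p = 0.00432).

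Of 16 B cell and plasma cell genes in the table, 10 passed the filter, 6 rose (2.47% of all genes did) and none fell (median 2.49). No B lineage gene entered the ratio. CD79A, a signalling chain of the B cell receptor, was 1.99, 16.5 and 128 CPM in the T-cell-rich tumors and 0.295, 0.904 and 2.81 CPM in the CD163-dominant tumors. It was above all CD163-dominant tumors in 18 of 19 T-cell-rich tumors (log2 fold change 4.52 ± 0.72, adjusted p = 0.000487). Its partner CD79B rose by 4.26 ± 0.82 and POU2AF1, a B cell coactivator, by 4.36 ± 0.96 (adjusted p = 0.00167 and 0.00575). Of the plasma cell genes, JCHAIN, which joins immunoglobulin polymers, was 20.2, 357 and 3924 CPM in the T-cell-rich tumors and 7.30, 30.5 and 549.8 CPM in the CD163-dominant tumors (3.32 ± 0.67, adjusted p = 0.00276). MZB1 rose by 3.97 ± 0.98 and IRF4 by 1.66 ± 0.48 (adjusted p = 0.0162 and 0.0417). The median of the list was 1.42 within COTC021 and 3.24 within COTC022, where 4 of the 5 T-cell-rich libraries had the doubled separator. POU2AF1 was 2.27 within COTC021 (adjusted p = 0.461) and 5.59 within COTC022 (adjusted p = 0.00123), and CD79B 2.75 (adjusted p = 0.347) and 5.20 (adjusted p = 0.00123). Without the doubled-separator libraries CD79A was still called (4.07, adjusted p = 0.0266). The log2 fold changes of the others were then 3.12 for CD79B (adjusted p = 0.217), 3.15 for POU2AF1 (adjusted p = 0.26), 2.64 for JCHAIN (adjusted p = 0.102), 2.94 for MZB1 (adjusted p = 0.31) and 1.22 for IRF4 (adjusted p = 0.402).

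RefSeq types 28 of the tested features as variable segments or constant regions of antigen receptors, and 20 of these rose and none fell (median log2 fold change 4.87). Their log2 fold changes ranged from 2.14 to 5.81. The median was 3.03 within COTC021 and 6.00 within COTC022, where most T-cell-rich libraries had the doubled separator. Their summed level was 167, 9463 and 127560.0 CPM in the T-cell-rich tumors and 35.3, 184 and 4805 CPM in the CD163-dominant tumors, and 10 of 19 T-cell-rich tumors were above all of the others. The 11 segments on chromosome 26 included 8 that rose, the 9 on chromosome 8 included 4, and both constant regions on chromosome 16 rose. Segments of a family are near-identical in sequence, so the counts of any one of them are uncertain where RSEM divided reads among copies.

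**Figure D4:**
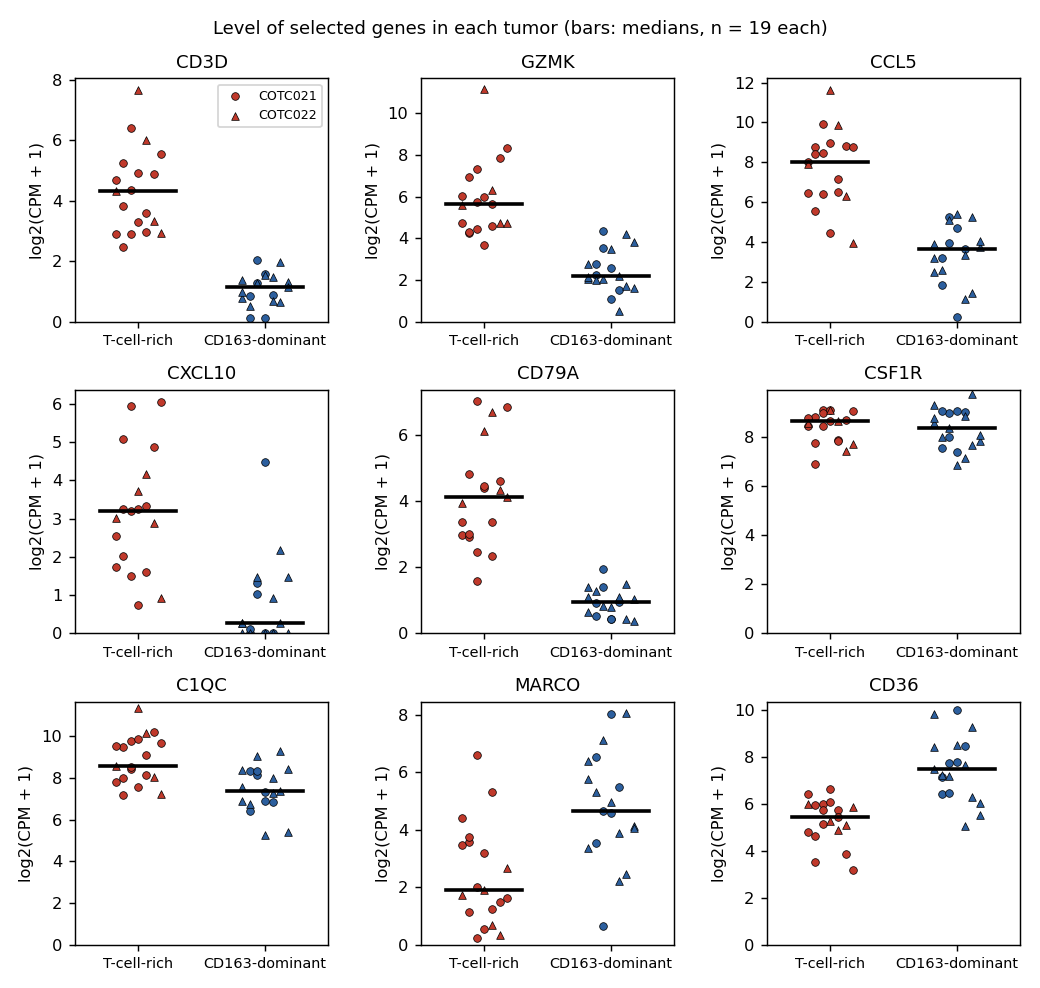
Level of 9 genes as log2(CPM + 1) in each of the 19 T-cell-rich (red) and 19 CD163-dominant (blue) tumors, with circles for COTC021, triangles for COTC022 and bars for medians. CD3D separates the groups completely, GZMK, CCL5 and CD79A nearly so, CSF1R overlaps throughout, and MARCO and CD36 are lower in most T-cell-rich tumors.

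Of 26 tested pan-macrophage genes 1 rose and 2 fell, against 2.47% and 0.927% of all genes, and the median was -0.04. CSF1R, the receptor that macrophages need to survive, was 119, 397 and 554 CPM in the T-cell-rich tumors and 113, 329 and 871 CPM in the CD163-dominant tumors. The groups overlapped almost entirely, as the plot of 9 genes by tumor shows (-0.04 ± 0.25, adjusted p = 0.949). C1QC, a chain of the complement starter C1q made by macrophages, was 143, 383 and 2646 CPM in the T-cell-rich tumors and 37.7, 165 and 631 CPM in the CD163-dominant tumors and rose by 1.40 ± 0.40 (adjusted p = 0.0375), and C1QA and C1QB had log2 fold changes of 1.3 ± 0.40, adjusted p = 0.0564, and 1.38 ± 0.46, adjusted p = 0.0864. ITGAM, the CD11b chain of complement receptor 3, fell, with 2.02, 18.1 and 113 CPM in the T-cell-rich tumors and 12.6, 44.2 and 257 CPM in the CD163-dominant tumors (-1.44 ± 0.39, adjusted p = 0.0286). The fractalkine receptor CX3CR1 also fell (-1.57 ± 0.43, adjusted p = 0.0291). The CX3CR1 medians were 1.56 CPM in the T-cell-rich, 5.88 in the middle and 4.50 in the CD163-dominant tumors, so the level did not follow the ratio in order. This gene also passed in edgeR and DESeq2, but not with all 58 FP tumors in the limma fit (adjusted p = 0.119). CD68 and AIF1 had log2 fold changes of 0.67 ± 0.40, adjusted p = 0.382, and -0.12 ± 0.30, adjusted p = 0.874.

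Of 18 tested macrophage scavenger and tissue-resident genes, 3 fell and none rose, against 0.927% and 2.47% of all genes, and 15 of 18 log2 fold changes were negative (median -0.66, -0.84 within COTC021 and -0.57 within COTC022). CD36, a receptor for oxidized lipoprotein and fatty acids that macrophages, fat cells and capillaries carry, lies on chromosome 18, 20626442 to 20655919. It was 8.09, 41.8 and 97.5 CPM in the T-cell-rich tumors and 32.4, 176 and 1034 CPM in the CD163-dominant tumors. All 19 T-cell-rich tumors were below the CD163-dominant median (log2 fold change -2.35 ± 0.39, adjusted p = 0.00055). MARCO, a scavenger receptor for bacteria and particles on chromosome 19, 32420649 to 32465527, was 0.190, 2.78 and 95.8 CPM in the T-cell-rich tumors and 0.568, 24.3 and 269 CPM in the CD163-dominant tumors, below that median in 17 of 19 (-3.12 ± 0.86, adjusted p = 0.0319). F13A1, the coagulation factor XIII subunit of resident macrophages, was 5.34, 64.4 and 128 CPM in the T-cell-rich tumors and 17.7, 149 and 634 CPM in the CD163-dominant tumors, below that median in 19 of 19 (-1.75 ± 0.44, adjusted p = 0.0183). With the FP tumors ranked by the ratio of CD2 to MSR1, MARCO and F13A1 did not pass (adjusted p = 0.0804 and 0.0752), while CD36 did (adjusted p = 0.000251). Over all named genes tested with that ranking, 13 no longer passed and 72 kept their direction and their side of the threshold. MSR1 and MRC1, the scavenger and mannose receptors, had log2 fold changes of -0.81 ± 0.37, adjusted p = 0.238, and -0.83 ± 0.30, adjusted p = 0.116, and VSIG4 of -0.74 ± 0.33, adjusted p = 0.227, and none of these passed. CD5L, a protein of tissue macrophages, was 2.10, 74.8 and 1173 CPM in the T-cell-rich tumors and 0, 7.87 and 240.2 CPM in the CD163-dominant tumors and went the other way without passing (3.21 ± 1.12, adjusted p = 0.106). IL10, below the filter, had 2, 9 and 73 counts in the T-cell-rich and 2, 11 and 46 in the CD163-dominant tumors.

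The 10 genes with the largest falls among genes with a symbol were FABP4, MARCO, PDK4, CD36, P2RY12, F13A1, PCSK5, SRPX2, SLC7A8 and CX3CR1. FABP4, a fatty-acid carrier of fat cells, capillaries and some macrophages, was 0, 8.30 and 142 CPM in the T-cell-rich tumors and 6.53, 32.5 and 885 CPM in the CD163-dominant tumors (-3.25 ± 0.84, adjusted p = 0.022). PDK4, which restrains glucose oxidation, was 1.35, 9.00 and 64.8 CPM in the T-cell-rich tumors and 9.36, 40.9 and 428 CPM in the CD163-dominant tumors (-2.35 ± 0.53, adjusted p = 0.00736). P2RY12, an ADP receptor of platelets and some resident macrophages, fell by 2.14 ± 0.40 and the amino acid transporter SLC7A8 by 1.59 ± 0.33 on the log2 scale (adjusted p = 0.00146 and 0.00395). Within COTC021 and COTC022 the log2 fold changes were -4.08 and -1.99 for FABP4, -3.19 and -1.10 for PDK4, and -1.96 and -1.08 for SLC7A8. The protease PCSK5 and the matrix protein SRPX2 had log2 fold changes of -1.68 ± 0.49, adjusted p = 0.0461, and -1.67 ± 0.44, adjusted p = 0.0247. PCSK5 passed in edgeR and DESeq2, but in limma not without the trial term or with the ratio of CD2 to MSR1 (adjusted p = 0.101 and 0.0925). SRPX2 passed in DESeq2 and with the ratio of CD2 to MSR1, but not in edgeR (adjusted p = 0.0603). Without the tumor with the highest CD3E neither passed in limma (adjusted p = 0.0985 and 0.0703).

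Of 5 tested adipocyte genes 2 fell (0.927% of all genes did), FABP4 and LPL (-1.54 ± 0.42, adjusted p = 0.0318), and all 5 log2 fold changes were negative. The summed level of the 8 adipocyte genes in the table was 6.60, 88.8 and 214 CPM in the T-cell-rich and 59.7, 169 and 2271 CPM in the CD163-dominant tumors. The part of fat in the sample in the falls of CD36, FABP4, LPL and PDK4 was not tested.

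None of the 13 osteoblast, 11 osteoclast, 8 cartilage, 10 fibroblast and matrix, 10 endothelial, 10 skeletal muscle, 16 cell cycle, 7 neutrophil or 4 mast cell genes tested passed in limma. All 10 fibroblast and matrix genes had negative log2 fold changes, also within each trial, with a median of -0.96. COL3A1, the type III collagen chain, was 29.8, 4764 and 18830.2 CPM in the T-cell-rich tumors and 82.9, 18165 and 53779 CPM in the CD163-dominant tumors (-1.39 ± 0.88, adjusted p = 0.415). COL1A1, the type I chain of bone matrix, was 328, 15870.3 and 36713 CPM in the T-cell-rich tumors and 1107, 24121 and 69622 CPM in the CD163-dominant tumors (-1.14 ± 0.54, adjusted p = 0.251). The list medians had opposite signs in COTC021 and COTC022 for osteoblast (0.42 and -0.39), osteoclast (1.69 and -0.16), cartilage (0.91 and -0.20), endothelial (-0.81 and 0.41), skeletal muscle (-1.24 and 1.13), cell cycle (0.75 and -0.21), neutrophil (-0.46 and 0.17), dendritic cell (-0.06 and 0.76) and pan-macrophage genes (-0.13 and 0.15). Of 7 tested dendritic cell genes 1 rose, ZBTB46 (0.82 ± 0.22, adjusted p = 0.0291). The 8 erythroid genes in the table were all below the filter, and their summed level was at most 20.7 CPM.

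The total amount of leukocyte RNA was compared next, since the groups could differ in it. Of 13 tested pan-leukocyte genes 1 rose, CORO1A (1.22 ± 0.35, adjusted p = 0.0394), and all 13 log2 fold changes were positive (median 0.69). PTPRC, which encodes CD45, was 91.7, 146 and 1583 CPM in the T-cell-rich tumors and 41.4, 101 and 360.2 CPM in the CD163-dominant tumors (0.95 ± 0.32, adjusted p = 0.0931). With the mean pan-leukocyte level as a further term, an alternative added after the data were seen, 251 genes were higher (1.88%) and 238 lower (1.78%). In that fit 11 of 12 T cell receptor, 10 of 18 interferon gamma and 4 of 10 B lineage genes rose, and 8 of 26 pan-macrophage and 7 of 18 scavenger genes fell. The list medians were then 2.94, 0.89, 2.02, -0.42 and -0.91.

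The same ranking was applied within the PP cluster. In the 128 PP tumors, 42 with the highest and 42 with the lowest ratio were compared in the same way. There the ratio moved mostly with CD163, whose medians were 13.7 and 78.9 CPM, while CD3E had medians of 2.97 and 1.73 CPM. Of 13376 genes, 118 were higher (0.882%) and 428 lower (3.2%) in the tumors with the higher ratio. With a fold change above 3, 0 were higher in limma and 43 lower (0.321%), and 2156 genes of either direction had an unadjusted p under 0.05.

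In the plot of the FP against the PP contrast the lists part: none of the 12 tested T cell receptor genes was higher in the PP tumors (median log2 fold change 0.45), and 22 of 26 pan-macrophage genes were lower (median -1.09). The fall in the PP tumors was not limited to macrophage genes. Of 13 pan-leukocyte genes 11 were lower there (median -0.78), against 1 that rose in the FP tumors. Of 18 scavenger genes 10 were lower in the PP tumors, and of 11 osteoclast genes 5, against 3.2% of all genes. CSF1R had a log2 fold change of -1.11 ± 0.24 there (adjusted p = 0.00152), and CCL5 of 0.64 ± 0.29 (adjusted p = 0.245). CD36 and MARCO were lower in both, with -1.07 and -4.00 in the PP tumors (adjusted p = 0.000121 and 7.94e-08). The genes higher in both numbered 2 (0.604% of the FP and 1.69% of the PP list), CCDC88B and PRKD2, and those lower in both 16 (12.9% of the FP and 3.74% of the PP list). Of all tested genes 0.882% were higher and 3.2% lower in the PP tumors, so the 0.604% is below its share. Another 3 genes were higher in the FP and lower in the PP tumors, and 0 the other way.

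The difference of the contrast between FP and PP tumors passed the test for 389 of 13376 genes (2.91%), of which 350 had the larger log2 fold change in the FP tumors. Of the genes higher in the FP tumors 190 of 331 were among them, and of the genes lower 12 of 124. Both sets were picked in FP libraries that also enter this test, which favours a difference, so these counts are a description. The ratio itself spanned more CD3E in the FP tumors, with medians of 49.5 and 4.19 CPM. All 12 T cell receptor genes and 13 of 18 interferon gamma genes passed, as did 12 of 13 pan-leukocyte and 9 of 26 pan-macrophage genes. C1QC had opposite directions, with 1.40 in FP and -0.96 in PP tumors (difference 2.32 ± 0.47, adjusted p = 0.000876), and it passed the test in each. CD36 and MARCO did not differ beyond the test (adjusted p = 0.0678 and 0.822). The FP tumors were chosen with GS-1, whose genes include C1QB, VSIG4, CCR1, CCR2, PDCD1LG2, C3AR1, IKZF1, ITGAL, CD53, DLA-DQA1 and DLA-DQB1, so the range of these genes within each cluster was set in part by that choice.

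**Figure D5:**
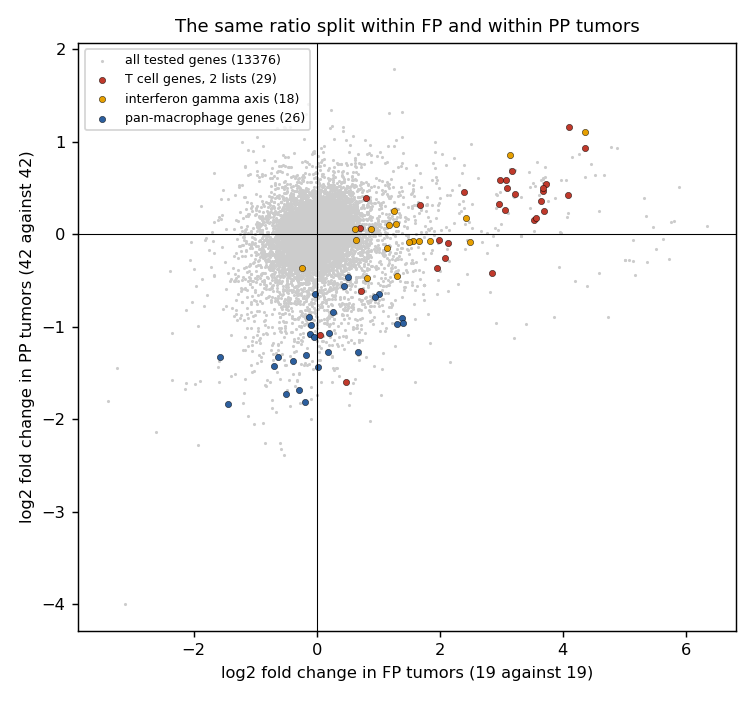
Log2 fold change between high and low ratio tumors within the FP (x axis, 19 against 19) and the PP cluster (y axis, 42 against 42) for the 13376 tested genes. T cell genes (red) lie far to the right and near 0 on the y axis, interferon gamma genes (orange) lie to the right, and pan-macrophage genes (blue) lie near 0 on the x axis and below 0 on the y axis.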

How the data were processed

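RNA of frozen tumors (TruSeq Stranded mRNA, paired reads, NovaSeq) was aligned by the authors to GSD_1.0 with STAR 2.7.0f after cutadapt trimming and quantified with RSEM 1.3.1, and the deposited values are expected counts per gene, not normalized. They were rounded to whole numbers (3.07% were not whole). Of the columns, 186 were used and 12 were not, since their names matched no sample used here. Cluster membership came from the study's supplementary data and the trial from the sample titles. Survival, staining and deconvolution values were not used here.

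CPM is the count over the column total. The low-count filter of edgeR 4.0.16, filterByExpr, was run over the 58 FP libraries with 10 as the minimum count, a large.n of 5 and a proportion of 0.5, which left 13376 genes after CD3E and CD163 were removed. TMM factors and voom weights (limma 3.58.1, R 4.3.3) entered a linear model with group and trial as terms, and p-values were Benjamini-Hochberg adjusted over all genes. Values after ± are SE. On simulated data with the 38 libraries and 13378 genes, the fit called 85 of 100 genes changed 3-fold, 95 of 100 changed 6-fold and 13 of 13178 unchanged genes. Alternatives used edgeR's quasi-likelihood test, DESeq2 1.42.0, other filters, cuts, ratios and terms, and left out single tumors. Figures used matplotlib 3.10.9 in Python 3.11.15. Permutation tests used 100000 resamples.

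The named genes are CD3E and CD163, the 10 genes with the largest change in each direction that have a symbol, passed the test and moved the same way in each trial, and members of 24 gene lists. The tumors, groups and lists were chosen with earlier results of these data known. Gene positions and types were taken from RefSeq for UU_Cfam_GSD_1.0, where all 37952 features matched by symbol, and listed genes without a feature name were not analysed here. Results of some listed genes are not reported here. Depth of 6587634 to 27420867 counts over the series sets the precision for low genes. Each library is 1 dog.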

Additional observations from a re-analysis of the deposited data

Results flagged for a closer look

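The contrast between tumors with a high and a low ratio of CD3E to CD163 differed between the FP and the PP cluster for 389 genes, by the test of the difference itself in limma (adjusted p under 0.05). Of the 20 genes with the largest changes, 10 were among them, all higher in the T-cell-rich FP tumors. These genes were picked for their size in the FP tumors, which favours a difference, and the ratio spans more CD3E there, so the values are a description and not independent evidence. The difference in log2 fold change, FP minus PP, was 3.90 for TIGIT, 3.94 for CCL5, 3.85 for CD79A, 3.72 for CXCL13 and 3.22 for CXCL10. It was 3.48 for CD3D, 3.67 for POU2AF1, 3.41 for CD79B, 3.36 for NKG7 and 2.91 for CD3G. The adjusted p of these 10 ranged from 8.34e-05 for CCL5 to 0.0175 for CXCL10. CD3E overlapped little, with a lowest, median and highest level of 18.0, 49.5 and 880.4 CPM in the T-cell-rich FP tumors and 0.122, 2.97 and 18.9 CPM in the PP tumors with a high ratio. The groups hold 19 and 42 tumors, so no test of single outlying tumors was made.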

How the results depend on the processing

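Counts of called genes moved with the setting more than directions did. The genes higher and lower numbered 509 and 212 with edgeR's quasi-likelihood test, 657 and 357 with DESeq2, 220 and 74 with 29 against 29 FP tumors, 629 and 320 with the ratio as a continuous term, 2 and 6 within COTC021, 41 and 4 within COTC022, and 105 and 20 without the doubled-separator libraries. Without the filter on low counts 601 were higher, with the ratio of CD2 to MSR1 76 were lower, and with the pan-leukocyte level added 238 were lower. Without the tumor with the highest CD3E 199 were higher. With each of the 38 tumors left out in turn, 178 to 452 were higher, 42 to 234 lower, and 122 to 216 passed a fold change above 3, against 179 with all tumors. That last count was 439 without the filter, 111 with the filter over 186 libraries, 94 with 29 against 29 tumors, 79 with the continuous ratio, where the fold is per SD, 7 and 41 within COTC021 and COTC022, and 88 without the doubled-separator libraries. The fits without single tumors and with the pan-leukocyte level were chosen after seeing the data, and the cause of these moves was not tested. Over 186 libraries the filter dropped 9 of the 20 genes with the largest changes, and the 11 left kept their direction. The trial imbalance had p = 0.128 with 14 against 14 tumors (Fisher's exact test), and library totals p = 0.910 (permutation test) with the difference in the other direction.

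Of 87 named genes over the alternatives, 1169 of 1455 values kept their side of the threshold and their direction, 246 no longer passed, 28 newly passed and 12 changed sign. The sign changes were all in genes that did not pass: CD4 was -0.42 within COTC021, -0.066 without the tumor with the highest CD3E and -1.02 with the pan-leukocyte level added. MX1 was -0.22 with edgeR and -0.23 with DESeq2, and ISG15 -0.27 with both. CSF1R was 0.018 without the trial term, 0.0058 with all 58 tumors in the fit and 0.045 within COTC022, and AIF1 0.048 with 14 against 14 tumors and 0.0026 within COTC022. The 20 genes with the largest changes kept their direction in every alternative that tested them, which within the trials was fixed by how they were picked. Of the 20, 4 were called within COTC021, 4 within COTC022, 11 without the doubled-separator libraries, 15 with 29 against 29 tumors and 16 with 14 against 14, and 17 to 20 in the other alternatives that tested all 20. No paired analysis was possible because each tumor came from a different dog and replicate numbers only follow accession order.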

Other observations

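Several genes outside the lists also passed, and those named here were picked after their values were seen. PIM2, a survival kinase of lymphocytes, was 1.37, 10.9 and 93.7 CPM in the T-cell-rich tumors and 0.177, 0.872 and 5.30 CPM in the CD163-dominant tumors (4.08 ± 0.67, adjusted p = 0.000487). SLAMF7, a receptor of NK and plasma cells, was 7.10, 16.1 and 166 CPM in the T-cell-rich tumors and 1.66, 5.20 and 16.6 CPM in the CD163-dominant tumors (2.13 ± 0.44, adjusted p = 0.00349), and its log2 fold change in the PP tumors was -0.61 (adjusted p of the difference 0.000236). Among genes that fell, P4HA2, an enzyme that hydroxylates collagen, was 26.7, 213 and 444 CPM in the T-cell-rich tumors and 131, 420.0 and 843 CPM in the CD163-dominant tumors (-1.23 ± 0.32, adjusted p = 0.0212). The integrin chain ITGA5, a fibronectin receptor, was 167, 506 and 1215 CPM in the T-cell-rich tumors and 299, 949 and 1629.8 CPM in the CD163-dominant tumors (-1.02 ± 0.25, adjusted p = 0.0132), and ALOX5, the first enzyme of leukotriene synthesis, was 0.362, 2.83 and 15.2 CPM in the T-cell-rich tumors and 1.14, 6.70 and 24.9 CPM in the CD163-dominant tumors (-1.35 ± 0.37, adjusted p = 0.0319).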
